A study of Homo sapiens with 12 samples.

Results

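Interferon-stimulated genes are the genes that cells switch on when they sense interferon, and 32 of them, all of the classical antiviral kind, were followed here through RNA-seq libraries of ovarian cancer (OC) cell lines treated with quinacrine (QC), a drug first used against malaria. The members were fixed by name (4 IFIT genes, 4 OAS genes, 2 MX genes, the ISG15 system, the PARP9 and DTX3L pair, the RNA sensor IFIH1, 3 transcription factors and 12 other effectors) and were found by symbol, through the Ensembl identifiers, among the 60669 gene IDs of the deposited count table. All 32 were in the table and 29 had enough counts to be tested, while IRF9, RSAD2 and XAF1 were too low in nearly every library.

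Cells that detect viral or misplaced nucleic acid secrete type I or type III interferon, which binds its receptor and activates the kinases JAK1 and TYK2. These kinases phosphorylate STAT2, which enters the complex ISGF3 with IRF9, and ISGF3 binds a short DNA element in the promoters of interferon-stimulated genes. Many tumour cell lines keep part of this programme active without added interferon, and the size of that basal activity differs widely between lines.

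The series holds 12 libraries from 6 established human lines, with 1 vehicle library and 1 QC library (8 µM, 6 h) per line. HeyA8, SKOV3 and OV2008 are labelled sensitive, and HeyA8-MDR, SKOV3-TR and C13 (labelled OV2008_C13) are labelled resistant, each being the isogenic partner of the line named first in its family. The study's methods call HeyA8-MDR carboplatin-resistant, SKOV3-TR taxol-resistant and C13 cisplatin-resistant, whereas the series text speaks of platinum for all. Vehicle was the buffer alone, the labels name no interferon treatment, and each resistant line is a single selected line, so a difference from its parent is that of 1 line. Total counts lay between 17782556 and 30585059 per library. Because no line has a second library of the same treatment, the tests below measure the spread between these libraries only, and no label says that they came from separate cultures. In bulk RNA, fewer expressing cells and less RNA per cell cannot be told apart.

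Marker genes were checked against the labels before any comparison. Of 4 ovarian markers (PAX8, WT1, MUC16 and SOX17), the summed level was 266.5 to 393 CPM (counts scaled to a common library size) in the HeyA8 family and 290.3 to 553 CPM in the SKOV3 family, but 13.1 to 28.6 CPM in OV2008 and C13, where SOX17 was at or near 0 (0 to 0.0753 CPM). The 4 squamous markers (TP63, KRT5, KRT14 and KRT6A) summed to 2767 to 14090 CPM in OV2008 and C13, at most 0.177 CPM in the HeyA8 family and at most 51.2 CPM in the SKOV3 family. PAX8 stood at 7.55 to 24.7 CPM in OV2008 and C13 and at 233.8 CPM or more in the other lines. WT1 (1.73 to 4.01 CPM) and MUC16 (0.925 to 2.35 CPM) in OV2008 and C13 lay within the range of the other lines. PAX8, SOX17 and the squamous markers of OV2008 and C13 went against the ovarian label, whereas WT1 and MUC16 did not. These libraries are called by their line names below. Markers of immune cells, which could bring an interferon programme of their own, were low throughout: 4 lymphocyte markers summed to at most 2.35 CPM and 5 myeloid and dendritic markers to at most 0.974 CPM in any library, with MS4A1 and IL3RA at 0 in all of them. The 3 fibroblast markers summed to 1.56 to 42.8 CPM, and the endothelial marker CDH5 stood at 89.2 to 176 CPM in the HeyA8 family and at most 14.0 CPM elsewhere. The part of these cells in the results was not tested.

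The HeyA8 QC library stood apart. Across 285 genes at least 8-fold higher in HeyA8-MDR than in HeyA8 (vehicle libraries), it lay a median of 67.7% of the way, on the log2 scale, from HeyA8 vehicle to HeyA8-MDR vehicle, and across the 218 genes at least 8-fold lower it lay 24.1% of the way. The same medians were 0% to 25.8% and 1.99% to 12.7% for the QC libraries of the other 5 lines. Over the 15 interferon-stimulated genes at least 2-fold apart between HeyA8 and HeyA8-MDR, the HeyA8 QC library lay 29.9% of the way. For such genes in their own families, the QC libraries of the other 5 lines lay −5.74% to 24.4% of the way. The highest of these, 24.4%, was SKOV3. Its QC library lay 0% and 3.71% of the way across the genes at least 8-fold higher and lower in SKOV3-TR. The part that the position of the HeyA8 QC library plays in the results was not tested. The counts of genes called are given below without the HeyA8 QC library for the families and without the pair of HeyA8 libraries for the QC contrasts.

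The element that ISGF3 binds has the core GAAANNGAAA (N is any base). It was searched on both strands, overlapping matches counted apart, in the 250 bases before and 50 bases after each annotated start (RefSeq, GRCh38.p14). It occurred in 1255 of 35116 promoter windows (3.57%) and in a window of 4.38% of 27305 genes. Of the 26 members with a window in that table, 19 (73.08%) held it. The promoters shown belong to members called between a resistant line and its parent in the tests below, and the capitals mark the match, written 5′ to 3′ on the gene's strand, where TTTCNNTTTC is the same element on the other strand.
IFIT3: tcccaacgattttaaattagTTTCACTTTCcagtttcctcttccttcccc
PARP9: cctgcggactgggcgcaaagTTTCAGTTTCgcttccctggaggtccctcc
BST2: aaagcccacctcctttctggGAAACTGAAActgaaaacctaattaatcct
IFI6: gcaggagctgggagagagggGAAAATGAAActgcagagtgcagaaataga
IFI44: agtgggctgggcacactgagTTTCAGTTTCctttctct
ISG15: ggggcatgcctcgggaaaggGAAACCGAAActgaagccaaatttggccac
OAS3: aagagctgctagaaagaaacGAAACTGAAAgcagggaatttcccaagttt
These stretches lie at chr10:89327855-89327904 on the plus strand for IFIT3, chr3:122564312-122564361 on the minus strand for PARP9, chr19:17405731-17405780 on the minus strand for BST2, chr1:27672278-27672327 on the minus strand for IFI6, chr1:78649751-78649788 on the plus strand for IFI44, chr1:1013370-1013419 on the plus strand for ISG15 and chr12:112938311-112938360 on the plus strand for OAS3. All are upstream of the start, with the match beginning 122 bases before it in IFIT3, 41 in PARP9, 130 in BST2, 115 in IFI6, 18 in IFI44, 107 in ISG15 and 143 in OAS3. BST2 and ISG15 each held a further match overlapping the one shown, and IFIT3, IFI6 and OAS3 held further matches elsewhere in their windows. The windows of CMPK2, HERC6, IRF9, OAS1, SAMD9L, STAT2 and XAF1 held no match in these letters, which says nothing about the factor. IRF7, OAS2, MX2, USP18, OASL and IFIT2 were not among the windows used here.

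Levels are given as CPM after TMM normalization (a scaling that removes differences in library composition), with the vehicle library first and the QC library second for each line. Summed over the 32 genes, the level was 509 and 333 CPM in HeyA8, 262 and 197 in HeyA8-MDR, 789 and 572 in SKOV3, 415 and 392.3 in SKOV3-TR, 569 and 412 in OV2008 and 684 and 726 in C13. STAT2, DTX3L and OAS3 together made up 30.1% to 64.7% of that sum. The median over the 32 genes was 1.82 and 1.66 CPM in HeyA8-MDR and 14.5 and 19.2 CPM in C13, the lowest and the highest of the 6 lines. Of the 29 tested genes, 16 had their highest library in C13 and 12 their lowest in HeyA8-MDR. The share of all genes with these patterns was not counted, so these numbers are not read as an excess. Per kilobase of transcript, the genes with the highest mean levels were BST2 (36.99 CPM per kb), ISG15 (17.9), IFI6 (15.4) and STAT2 (15.04), and the lowest were XAF1 (0.0484) and RSAD2 (0.0533).

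**Figure D1:**
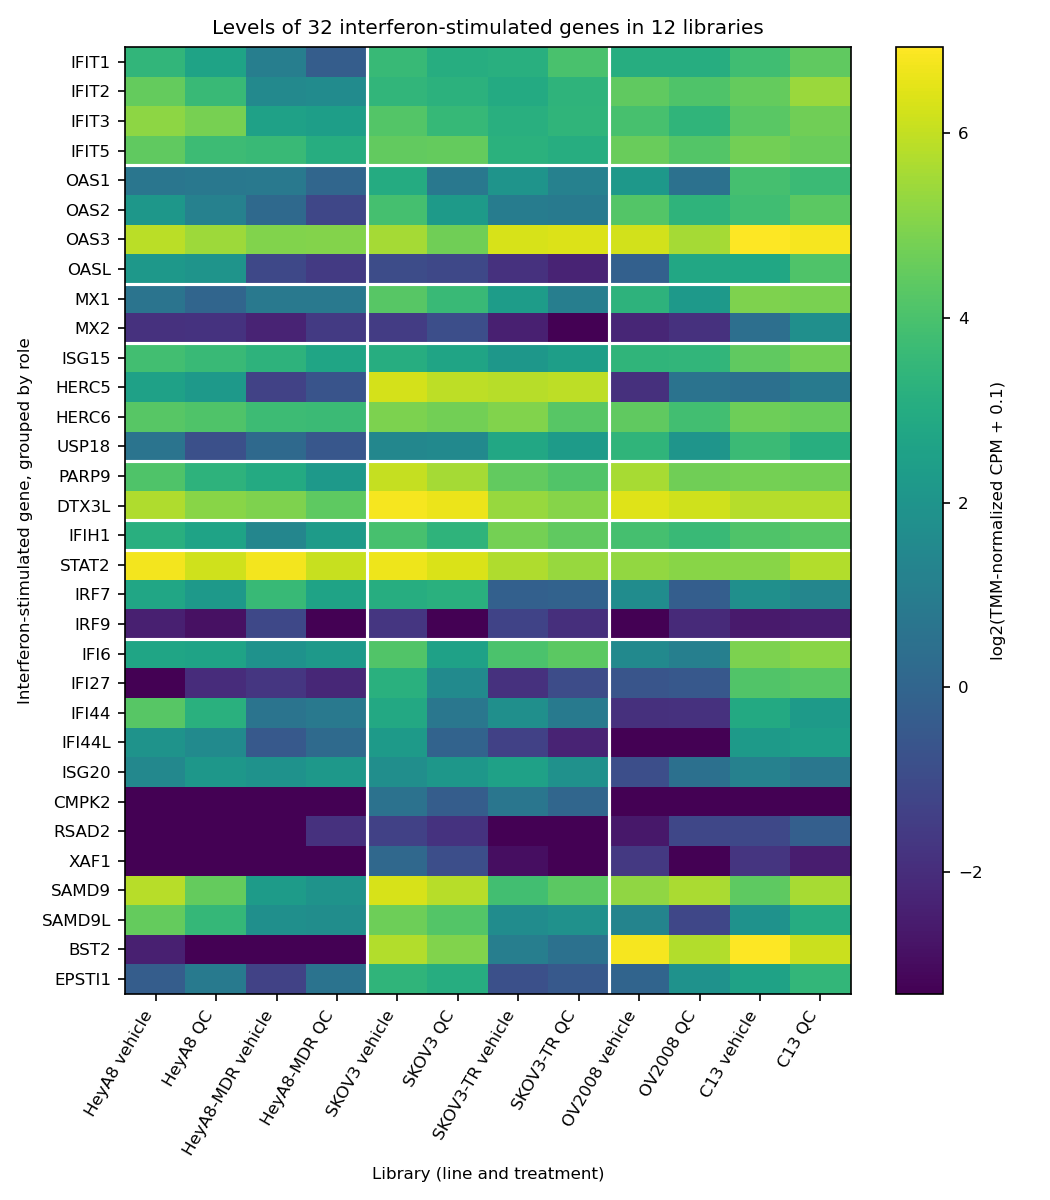
Levels of the 32 interferon-stimulated genes (rows, grouped by role with white lines between roles) in the 12 libraries (columns, white lines between families) as log2(TMM-normalized CPM + 0.1). C13 holds the highest library for 16 of the 29 tested genes, a pattern not counted over all genes, and the HeyA8-MDR columns are dark for most IFIT and OAS genes.

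Each resistant line was compared with its parent to ask whether the basal level of the programme differs between isogenic partners. The edgeR quasi-likelihood fit used all 12 libraries with a term for each line and a common QC term, so that each line's pair of libraries, once that term was removed, stood in as its replicates (5 residual degrees of freedom). A gene is called here at an adjusted p (Benjamini-Hochberg over 18720 genes) under 0.05, fold changes are log2 values ± SE, and all tests were two-sided.

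The families differed in direction. In HeyA8-MDR, 9 of the 29 tested genes were lower than in HeyA8 and 0 were higher, beside 3.63% of all genes called lower and 0.449% called higher. In SKOV3-TR, 13 were lower and 2 higher than in SKOV3, beside 14.9% and 16.6% of all genes. In C13, 11 were higher than in OV2008 and 0 lower, beside 4.43% and 5.02% of all genes. The median log2 difference of the 29 genes was −0.73 in HeyA8-MDR, −0.98 in SKOV3-TR and 0.89 in C13, where that of all genes tested was −0.02, 0.02 and 0.05. Leaving out genes with 3 or fewer counts in all 4 libraries of a family (BST2 and CMPK2 in the HeyA8 family, CMPK2 in the OV2008 family) kept the first of these medians at −0.73 and gave 0.93 for C13, with IFI44L, which had no counts in OV2008, set at its lower bound. In the vehicle pairs alone, the median ratio of members with over 3 counts in either library was −0.85 in HeyA8-MDR, −1.035 in SKOV3-TR and 0.68 in C13. The QC pairs gave −0.68, −1.23 and 1.285, so the C13 difference was smaller without drug than with it.

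The counts depended on single libraries to different degrees. Without the HeyA8 QC library, 11 genes were lower in HeyA8-MDR, and the 9 called with all libraries were still called, with log2 differences from −4.38 for OASL to −1.34 for PARP9. Without the HeyA8 vehicle library 4 were lower, without the HeyA8-MDR QC library 6, and without the HeyA8-MDR vehicle library 1 (IFIT3). In SKOV3-TR, 11 to 13 genes were called with any of the family's 4 libraries left out, and 16 without the HeyA8 QC library. In C13 the count was 5 without the C13 QC library and 7 without any of the family's other 3, and IFI6, IFI44, IFI27, IFI44L and MX1 were called with each of these 4 left out. It was 11 without the HeyA8 QC library.

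The IFIT genes encode proteins that bind foreign RNA ends and block its translation, and 3 of the 4 were lower in HeyA8-MDR. IFIT3 stood at 36.4 and 28.6 CPM in HeyA8, 5.76 and 5.27 in HeyA8-MDR, 18.1 and 11.6 in SKOV3, 8.65 and 10.3 in SKOV3-TR, 15.4 and 10.4 in OV2008 and 19.9 and 26.0 in C13. IFIT2 stood at 23.0 and 12.2 CPM in HeyA8, 2.75 and 2.96 in HeyA8-MDR, 10.7 and 9.66 in SKOV3, 7.65 and 10.1 in SKOV3-TR, 21.5 and 17.3 in OV2008 and 22.5 and 42.3 in C13. IFIT1 stood at 10.6 and 6.13 CPM in HeyA8, 1.97 and 0.71 in HeyA8-MDR, 11.8 and 8.34 in SKOV3, 8.83 and 15.6 in SKOV3-TR, 8.28 and 8.24 in OV2008 and 13.9 and 21.4 in C13. In each of these genes both HeyA8-MDR libraries lay below both HeyA8 libraries and were the lowest pair of the series. The difference was −2.55 ± 0.31, adjusted p = 0.00162 for IFIT3, −2.62 ± 0.40, adjusted p = 0.00518 for IFIT2 and −2.62 ± 0.50, adjusted p = 0.017 for IFIT1. IFIT5, whose product binds RNA on its own, stood at 21.6 and 12.9 CPM in HeyA8, 12.3 and 8.34 in HeyA8-MDR, 22.1 and 22.9 in SKOV3, 9.19 and 8.41 in SKOV3-TR, 24.2 and 18.1 in OV2008 and 26.5 and 23.7 in C13. It was lower in SKOV3-TR (−1.37 ± 0.26, adjusted p = 0.00204), with both SKOV3-TR libraries below both SKOV3 libraries, whereas in HeyA8-MDR the HeyA8 QC and HeyA8-MDR vehicle libraries nearly met (−0.73 ± 0.26, adjusted p = 0.125). None of the 4 was called in C13, where IFIT3 came nearest (0.86 ± 0.29, adjusted p = 0.0867), its OV2008 and C13 libraries not overlapping.

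The OAS genes encode synthetases of short oligoadenylates, apart from OASL, which lacks that activity and acts through the sensor RIGI. OAS3, the largest, stood at 59.1 and 42.9 CPM in HeyA8, 31.5 and 32.2 in HeyA8-MDR, 47.1 and 25.9 in SKOV3, 78.8 and 83.7 in SKOV3-TR, 74.4 and 46.8 in OV2008 and 122 and 109.7 in C13. It was higher in SKOV3-TR (1.21 ± 0.25, adjusted p = 0.0034) and in C13 (0.97 ± 0.25, adjusted p = 0.0307), the only member called higher in both, beside 1.15% of all genes, and no parent library of either family reached the resistant ones. OAS1 was at 1.55 and 1.61 CPM in HeyA8, 1.66 and 0.947 in HeyA8-MDR, 7.93 and 1.63 in SKOV3, 3.89 and 2.17 in SKOV3-TR, 4.37 and 1.32 in OV2008 and 15.03 and 12.6 in C13. It was called higher in C13 (2.49 ± 0.52, adjusted p = 0.0123), with both C13 libraries above both OV2008 libraries. OAS2 stood at 4.16 and 2.19 CPM in HeyA8, 1.04 and 0.355 in HeyA8-MDR, 15.1 and 4.67 in SKOV3, 1.85 and 1.8 in SKOV3-TR, 18.02 and 10.1 in OV2008 and 13.9 and 20.2 in C13. OAS2 was lower in SKOV3-TR (−2.30 ± 0.50, adjusted p = 0.00431) and lay just outside the threshold in HeyA8-MDR (−2.18 ± 0.56, adjusted p = 0.0505). OASL stood at 4.34 and 3.83 CPM in HeyA8, 0.363 and 0.237 in HeyA8-MDR, 0.417 and 0.363 in SKOV3, 0.177 and 0.106 in SKOV3-TR, 0.783 and 6.96 in OV2008 and 6.75 and 17.3 in C13. OASL was lower in HeyA8-MDR (−3.77 ± 0.84, adjusted p = 0.0307), on 7 and 4 counts in HeyA8-MDR against 98 and 105 in HeyA8, and its OV2008 libraries were far apart from each other.

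The MX genes encode dynamin-like GTPases that trap viral nucleoproteins. MX1 stood at 1.46 and 0.913 CPM in HeyA8, 1.66 and 1.66 in HeyA8-MDR, 19.0 and 12.2 in SKOV3, 4.97 and 2.01 in SKOV3-TR, 9.9 and 4.49 in OV2008 and 31.2 and 29.2 in C13. It was lower in SKOV3-TR (−2.20 ± 0.35, adjusted p = 0.000676) and higher in C13 (2.18 ± 0.35, adjusted p = 0.00269), and in neither family did the libraries of the 2 lines overlap. In the HeyA8 family MX1 was low in all 4 libraries, and HeyA8-MDR differed from HeyA8 by 0.52 ± 0.41, adjusted p = 0.473. MX2 stood at 0.177 and 0.183 CPM in HeyA8, 0.104 and 0.237 in HeyA8-MDR, 0.251 and 0.453 in SKOV3, 0.0883 and 0 in SKOV3-TR, 0.112 and 0.176 in OV2008 and 1.23 and 3.39 in C13. It reached more than 10 counts only in C13, with 37 and 90 counts there against 2 and 4 in OV2008. The vehicle pair gives an 11.0-fold higher level in C13, with a 95% interval of 2.84 to 94.2 that covers counting error only, and the fitted difference was 3.87 ± 0.85, adjusted p = 0.0155.

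ISG15 is a ubiquitin-like protein that is attached to other proteins by the ligase HERC5 and removed by USP18, which also dampens the receptor. ISG15 stood at 14.2 and 12.3 CPM in HeyA8, 9.91 and 6.51 in HeyA8-MDR, 8.35 and 6.26 in SKOV3, 4.27 and 5.34 in SKOV3-TR, 10.3 and 10.6 in OV2008 and 21.6 and 27.0 in C13. It was higher in C13 (1.22 ± 0.30, adjusted p = 0.0246), where its libraries exceeded all others of the series. HERC5 stood at 5.75 and 4.45 CPM in HeyA8, 0.311 and 0.533 in HeyA8-MDR, 77.5 and 59.9 in SKOV3, 57.0 and 60.9 in SKOV3-TR, 0.168 and 1.41 in OV2008 and 1.3 and 1.73 in C13. Both SKOV3 lines were far above the other 4 lines, and HERC5 was lower in HeyA8-MDR (−3.61 ± 0.58, adjusted p = 0.00693), on 6 and 9 counts against 130 and 122. USP18 stood at 1.46 and 0.475 CPM in HeyA8, 1.04 and 0.592 in HeyA8-MDR, 2.59 and 2.81 in SKOV3, 7.07 and 4.86 in SKOV3-TR, 10.5 and 4.01 in OV2008 and 12.8 and 8.47 in C13. USP18 was called in no family, the nearest being SKOV3-TR (1.07 ± 0.42, adjusted p = 0.0701), where both libraries lay above both SKOV3 libraries. HERC6, a relative of HERC5, ranged from 12.7 to 31.8 CPM over all libraries and was called in no family.

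PARP9 and DTX3L encode an ADP-ribosyltransferase family protein and its partner ubiquitin ligase, and the genes lie head to head on chromosome 3, with 2.41% of the DTX3L transcript overlapping PARP9 on the other strand. PARP9 stood at 17.3 and 9.93 CPM in HeyA8, 7.52 and 4.44 in HeyA8-MDR, 65.7 and 47.5 in SKOV3, 21.8 and 17.9 in SKOV3-TR, 47.7 and 25.8 in OV2008 and 27.8 and 26.9 in C13. DTX3L stood at 52.2 and 34.1 CPM in HeyA8, 30.6 and 21.2 in HeyA8-MDR, 111 and 99.5 in SKOV3, 40.9 and 33.5 in SKOV3-TR, 87.3 and 72.5 in OV2008 and 54.9 and 55.0 in C13. In both genes the SKOV3-TR libraries lay below the SKOV3 libraries and the HeyA8-MDR libraries below the HeyA8 libraries. PARP9 was lower in SKOV3-TR (−1.50 ± 0.25, adjusted p = 0.000888) and in HeyA8-MDR (−1.18 ± 0.26, adjusted p = 0.0305). DTX3L was lower in SKOV3-TR (−1.50 ± 0.21, adjusted p = 0.000229) and did not pass in HeyA8-MDR (−0.73 ± 0.21, adjusted p = 0.0671). PARP9, SAMD9 and SAMD9L were the 3 members called lower in both HeyA8-MDR and SKOV3-TR, beside 0.86% of all genes. In C13 the fitted differences were −0.35 ± 0.25, adjusted p = 0.409 for PARP9 and −0.52 ± 0.20, adjusted p = 0.128 for DTX3L.

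Among the regulators, STAT2, a subunit of ISGF3, stood at 108 and 73.8 CPM in HeyA8, 107 and 66.9 in HeyA8-MDR, 103 and 80.7 in SKOV3, 52.3 and 40.8 in SKOV3-TR, 39.1 and 34.6 in OV2008 and 34.1 and 53.6 in C13. IRF7, the factor that amplifies interferon gene transcription, stood at 6.55 and 4.49 CPM in HeyA8, 12.1 and 6.04 in HeyA8-MDR, 8.27 and 8.93 in SKOV3, 0.795 and 0.846 in SKOV3-TR, 3.08 and 0.749 in OV2008 and 3.33 and 2.52 in C13. Both SKOV3-TR libraries were below 1 CPM for IRF7, where SKOV3 held more than 8 CPM. IRF7 was lower in SKOV3-TR (−3.44 ± 0.52, adjusted p = 0.000428) and STAT2 was lower there too, with −0.98 ± 0.28, adjusted p = 0.0178, while neither was called in HeyA8-MDR (−0.07 ± 0.27, adjusted p = 0.929 for STAT2 and 0.67 ± 0.45, adjusted p = 0.395 for IRF7). IFIH1, which encodes the double-stranded RNA sensor MDA5, ranged from 2.49 CPM in HeyA8-MDR vehicle to 27.3 CPM in SKOV3-TR vehicle and was higher in SKOV3-TR than in SKOV3. IRF9 had 0 to 11 counts in every library, and 93.05% of its transcript is shared with a read-through gene on the same strand that itself had 0 to 3 counts. HTSeq by default leaves reads that fit more than 1 gene uncounted, so the level of IRF9 is uncertain.

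BST2, or tetherin, holds budding virus at the cell surface and had the highest mean level per kilobase. BST2 stood at 0.0885 and 0 CPM in HeyA8, 0 and 0 in HeyA8-MDR, 53.8 and 32.2 in SKOV3, 2.0 and 1.32 in SKOV3-TR, 113 and 54.1 in OV2008 and 119 and 69.1 in C13. It had 2 counts in 1 of the 4 HeyA8 family libraries and 0 in the rest, and was lower in SKOV3-TR than in SKOV3 (−4.69 ± 0.29, adjusted p = 1.32e-06), the smallest p of any member in that family. OV2008 and C13 held it at similar levels, and C13 differed by 0.21 ± 0.23, adjusted p = 0.618. EPSTI1, an interferon-inducible gene first described in epithelial and stromal cell contact, stood at 0.708 and 1.72 CPM in HeyA8, 0.311 and 1.42 in HeyA8-MDR, 10.3 and 8.3 in SKOV3, 0.471 and 0.634 in SKOV3-TR, 0.895 and 3.7 in OV2008 and 5.89 and 10.9 in C13. It was lower in SKOV3-TR (−4.18 ± 0.60, adjusted p = 0.000312) and higher in C13 (1.98 ± 0.53, adjusted p = 0.0376), where the C13 vehicle library exceeded the OV2008 QC library.

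IFI6, which protects the endoplasmic reticulum from viral replication, and IFI27, a mitochondrial protein, are commonly among the most strongly induced genes of the set. IFI6 stood at 6.42 and 6.06 CPM in HeyA8, 3.68 and 4.62 in HeyA8-MDR, 17.8 and 5.8 in SKOV3, 16.4 and 20.2 in SKOV3-TR, 2.8 and 2.07 in OV2008 and 30.3 and 34.3 in C13. IFI27 stood at 0 and 0.146 CPM in HeyA8, 0.207 and 0.118 in HeyA8-MDR, 9.06 and 2.9 in SKOV3, 0.177 and 0.423 in SKOV3-TR, 0.56 and 0.617 in OV2008 and 17.7 and 19.0 in C13. C13 held the highest libraries of the series for both genes, and OV2008 held the lowest for IFI6. IFI6 was higher in C13 (3.75 ± 0.46, adjusted p = 0.000484), as was IFI27 (4.94 ± 0.67, adjusted p = 0.00104), while IFI27 was lower in SKOV3-TR (−4.37 ± 0.72, adjusted p = 0.000773) on 6 and 8 counts. The IFI6 transcript shares 26.6% of its exonic length with a noncoding gene on the same strand.

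IFI44 and IFI44L are neighbouring paralogs on chromosome 1 with antiviral roles. IFI44 stood at 19.1 and 9.02 CPM in HeyA8, 1.45 and 1.66 in HeyA8-MDR, 7.22 and 1.59 in SKOV3, 3.38 and 1.8 in SKOV3-TR, 0.168 and 0.176 in OV2008 and 7.32 and 4.7 in C13. IFI44L stood at 3.76 and 2.88 CPM in HeyA8, 0.623 and 1.06 in HeyA8-MDR, 4.76 and 0.861 in SKOV3, 0.294 and 0.106 in SKOV3-TR, 0 and 0 in OV2008 and 4.66 and 5.34 in C13. For both genes OV2008 was at or near 0 and C13 was not. IFI44 had 3 and 4 counts in OV2008 and 220 and 125 in C13, a 43.6-fold higher vehicle level (95% counting interval 14.7 to 213), and the fit gave 5.04 ± 0.64, adjusted p = 0.000668. IFI44L had 0 counts in both OV2008 libraries and 140 and 142 in C13, at least 27.7-fold higher in the vehicle pair and at least 40.4-fold higher in the QC pair with a floor of 3 counts per library (adjusted p = 0.00162, edgeR). IFI44 was lower in HeyA8-MDR (−3.04 ± 0.51, adjusted p = 0.00785), with both HeyA8 libraries above both HeyA8-MDR libraries.

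SAMD9 and SAMD9L, paralogs that restrict poxviruses and slow growth, were lower in both HeyA8-MDR and SKOV3-TR. SAMD9 stood at 57.4 and 22.8 CPM in HeyA8, 4.88 and 3.73 in HeyA8-MDR, 80.1 and 57.2 in SKOV3, 13.9 and 20.6 in SKOV3-TR, 37.8 and 49.3 in OV2008 and 20.9 and 48.4 in C13. SAMD9L stood at 22.9 and 11.2 CPM in HeyA8, 3.37 and 3.19 in HeyA8-MDR, 25.2 and 17.9 in SKOV3, 3.12 and 3.54 in SKOV3-TR, 2.35 and 0.352 in OV2008 and 3.69 and 8.13 in C13. In both families every library of the resistant line lay below every library of its parent for both genes. In HeyA8-MDR the difference was −3.22 ± 0.50, adjusted p = 0.00577 for SAMD9 and −2.32 ± 0.59, adjusted p = 0.0492 for SAMD9L, and in SKOV3-TR it was −1.995 ± 0.46, adjusted p = 0.00635 and −2.67 ± 0.59, adjusted p = 0.00509. SAMD9L was also higher in C13 (2.31 ± 0.65, adjusted p = 0.0433), with 3.69 against 2.35 CPM in the vehicle pair. It was the single member called in all 3 families, beside 0.353% of all genes. The 5 members called in SKOV3-TR beyond the 10 with the smallest p were SAMD9L, IFI44L, SAMD9 and STAT2, which were lower by log2 differences of −3.61 to −0.98, and IFIH1, which was higher by 0.95.

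The remaining effectors were near the detection limit or not called. ISG20, an RNA exonuclease, ranged from 0.448 to 5.77 CPM and was called in no family. CMPK2, a mitochondrial nucleotide kinase next to RSAD2, had counts in the SKOV3 family alone (16 to 52), with 0 in the other 8 libraries. RSAD2, or viperin, had at most 20 counts, in C13 QC, and XAF1, a pro-apoptotic binding partner of XIAP, had at most 24, in SKOV3 vehicle. The XAF1 transcript shares 74.19% of its length with a gene on the other strand. Since the strand setting is not given, the level of XAF1 is uncertain, as is that of IRF9. Counts this low do not show a gene to be silent.

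**Figure D2:**
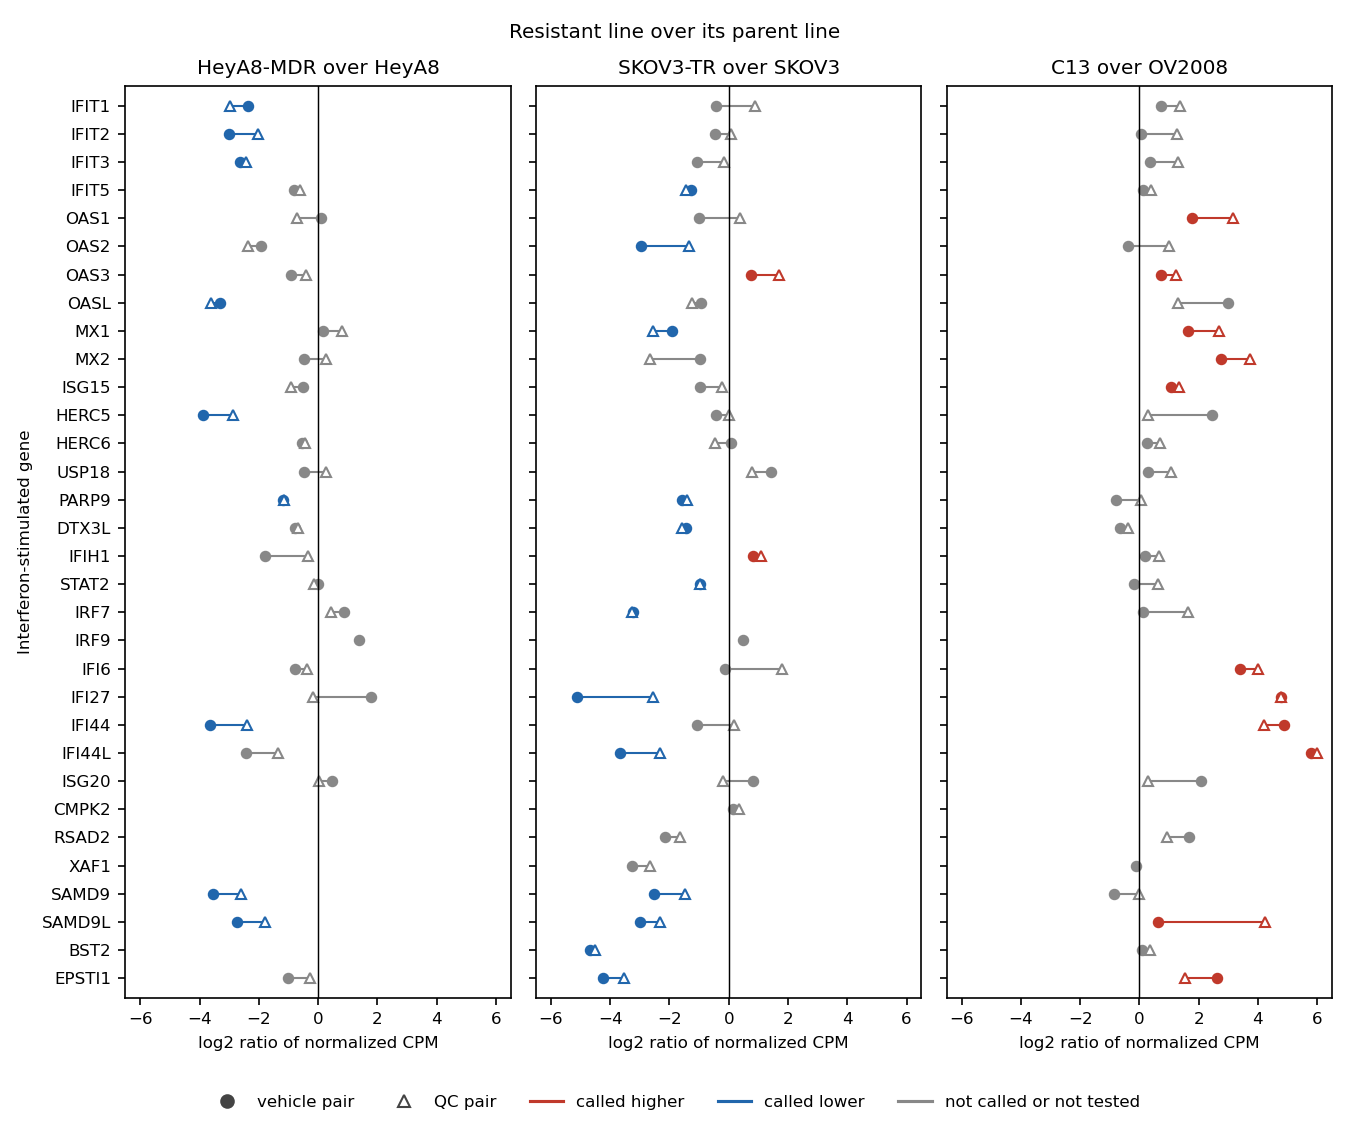
log2 ratio of normalized CPM, resistant line over parent line, for each gene in the vehicle pair (filled circles) and the QC pair (open triangles), with a prior count of 2 that draws low genes toward 0. Colour shows the edgeR call (blue lower, red higher, grey not called or not tested), and 9 genes are blue in HeyA8-MDR, 13 blue and 2 red in SKOV3-TR, and 11 red in C13.

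Over the 3 families, 25 of the 29 genes were called at least once, beside 38.8% of all genes, and 4 (CMPK2, HERC6, ISG20 and USP18) never. Of the 11 genes called higher in C13, 5 (EPSTI1, IFI27, IFI44L, MX1 and SAMD9L) were called lower in SKOV3-TR and 2 (IFI44 and SAMD9L) lower in HeyA8-MDR, combinations met by 0.913% and 0.331% of all genes.

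Because a call in one family and none in another does not show a difference, the difference between the families' effects was tested directly, a comparison added after the data were seen. The C13 effect exceeded the HeyA8-MDR effect for 14 of 29 genes and fell short of it for 0, beside 4.51% and 2.6% of all genes. The genes with the smallest p were IFI44 (8.08 ± 0.82, adjusted p = 0.000199), IFIT3 (3.41 ± 0.43, adjusted p = 0.000803) and IFI6 (4.33 ± 0.61, adjusted p = 0.00198), and all 4 OAS genes were among the 14. The C13 effect exceeded the SKOV3-TR effect for 18 genes and fell short for 0, beside 10.4% and 11.1% of all genes, led by BST2 (4.91 ± 0.37, adjusted p = 9.39e-06), IFI27 (9.31 ± 0.98, adjusted p = 5.28e-05) and MX1 (4.38 ± 0.50, adjusted p = 9.01e-05).

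The 2 families with lower levels differed from each other as well. The SKOV3-TR effect was above the HeyA8-MDR effect for 7 genes (IFIT1, IFIT2, IFIT3, IFI44, HERC5, OAS3 and IFIH1) and below it for 4 (IRF7, MX1, EPSTI1 and IFI27), beside 11.4% and 7.48% of all genes. In this comparison, with all libraries, the smallest p values belonged to IRF7 (−4.12 ± 0.68, adjusted p = 0.00162), OAS3 (1.86 ± 0.35, adjusted p = 0.00364) and MX1 (−2.72 ± 0.54, adjusted p = 0.00458). BST2 could not be compared between these families, since it had 2 counts in all in the HeyA8 family. Without the HeyA8 QC library, 13 genes were called between the C13 and HeyA8-MDR effects and 12 between the SKOV3-TR and HeyA8-MDR effects.

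**Figure D3:**
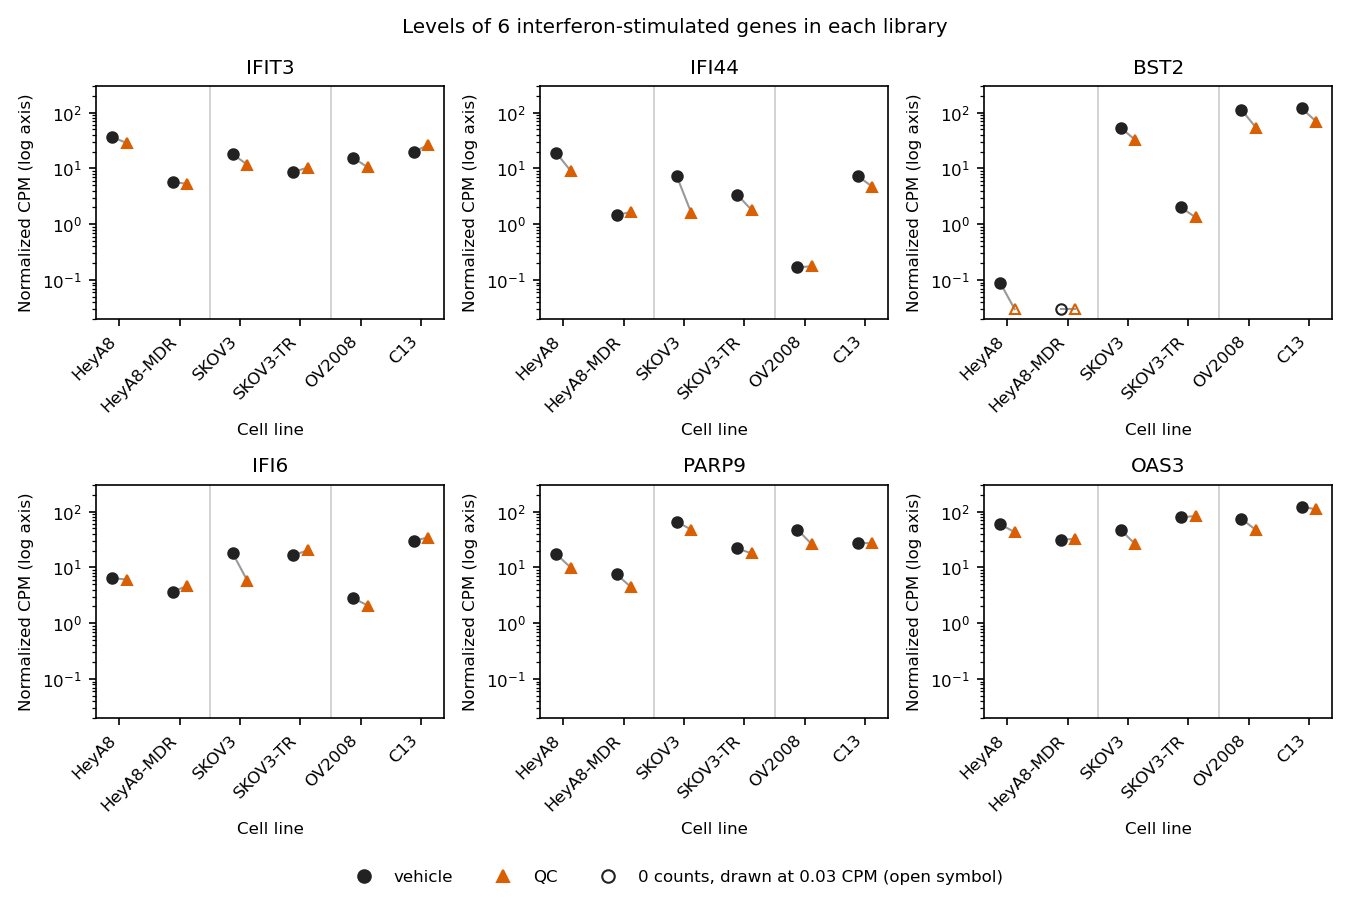
Normalized CPM (log axis) of IFIT3, IFI44, BST2, IFI6, PARP9 and OAS3 in the vehicle (circle) and QC (triangle) library of each line, with libraries at 0 counts drawn open at 0.03 CPM. Within the HeyA8 family, IFIT3 shows a split between the lines larger than that between treatments, with 36.4 and 28.6 CPM in HeyA8 against 5.76 and 5.27 in HeyA8-MDR.

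With the families pooled, no shared direction passed the test. In the 6 vehicle libraries, with family as the block, 0 of 27 tested genes were called between resistant and sensitive lines, where 0% of all 16091 genes were called. At an unadjusted p under 0.05, 4 genes were lower and 0 higher in resistant lines, beside 1.87% and 1.9% of all genes. These were SAMD9 (−2.30 ± 0.59, adjusted p = 0.975), PARP9 (−1.18 ± 0.34, adjusted p = 0.975), DTX3L (−0.95 ± 0.30, adjusted p = 0.975) and OAS2. Under DESeq2, 1 member, SAMD9, was called (adjusted p = 0.0328), a setting for which the share of all genes called is not given here. The median over the 27 genes was −0.63, but it was −0.04 without the HeyA8 family, −0.10 without the SKOV3 family and −1.17 without the OV2008 family.

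QC was compared with vehicle to ask whether the drug moves the programme within 6 h. Over all 6 lines, with the line as the block, 0 of 29 genes were called at the adjusted threshold, where 0% of all 18720 genes were called. At an unadjusted p under 0.05, 11 genes were lower and 1, EPSTI1, was higher after QC, beside 7.18% and 7.99% of all genes. The smallest p values were those of BST2 (−0.84 ± 0.18, adjusted p = 0.141), PARP9 (−0.53 ± 0.15, adjusted p = 0.169) and OAS1 (−0.96 ± 0.31, adjusted p = 0.194). DESeq2 called BST2 (adjusted p = 0.0041) and PARP9 (adjusted p = 0.037). The share of all genes that DESeq2 called is not given here, so these calls are not read as an excess. The median log2 change of the 29 genes was −0.30, where that of all genes was 0.00, and 22 of 29 lay below 0. Without the HeyA8 libraries, 30 genes were tested and 0 called, with 6 lower and 2 higher at an unadjusted p under 0.05, beside 5.41% and 6.62% of all genes, and a median of −0.24.

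In the sensitive lines 0 genes were called, where 0% of all genes were, and at an unadjusted p under 0.05 there were 11 lower and 0 higher, beside 3.04% and 3.55% of all genes. The median change was −0.52, and the genes with the smallest p were OAS3 (−0.66 ± 0.17, adjusted p = 0.596), BST2 (−0.94 ± 0.26, adjusted p = 0.621) and PARP9 (−0.72 ± 0.21, adjusted p = 0.621). In the resistant lines 0 were called, again where 0% of all genes were, and at an unadjusted p under 0.05 there were 1 lower (BST2, −0.71 ± 0.28, adjusted p = 0.816) and 0 higher, beside 2.59% and 3.43% of all genes, with a median of −0.01. Without the HeyA8 libraries the sensitive lines had 0 genes called, 10 lower and 1 higher at an unadjusted p under 0.05, beside 1.99% and 2.08% of all genes, and a median of −0.64.

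The difference between these responses was tested as a contrast and called 0 of 29 genes, where 0% of all genes were called. At an unadjusted p under 0.05 the response of resistant lines was the higher one for 5 genes (SAMD9L, IFIT2, OAS3, IFI6 and IFIT3) and the lower one for 0, beside 0.566% and 0.593% of all genes, and the median difference was 0.36. Without the HeyA8 libraries there were again 5 higher and 0 lower at that threshold, beside 0.689% and 0.588% of all genes, with a median difference of 0.37 and 0 called. The smallest p values gave 1.61 ± 0.54, adjusted p = 1 for SAMD9L, 0.97 ± 0.35, adjusted p = 1 for IFIT2 and 0.65 ± 0.24, adjusted p = 1 for OAS3.

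Line by line, where each ratio rests on 1 library per treatment and has no replicate check, the ratios of the members lay on both sides of 0. A ratio was counted when it passed 2-fold, and genes with 3 or fewer counts in both libraries were left out. In HeyA8, 4 of 27 genes were at least 2-fold lower (IFI44, SAMD9, SAMD9L and USP18) and 2 higher (EPSTI1 and IFI27), beside 6.68% and 10.7% of all genes. In HeyA8-MDR, 2 of 27 were lower (IFIT1 and OAS2) and 1 higher (EPSTI1), beside 9.3% and 6.62%. In SKOV3, 6 of 29 were lower (IFI27, IFI44, IFI44L, IFI6, OAS1 and OAS2) and 0 higher, beside 4.29% and 3.66%. In SKOV3-TR, MX1 was the single lower gene of 28 and 0 were higher, beside 5.84% and 3.23%. In OV2008, 6 of 27 were lower (BST2, IRF7, MX1, OAS1, SAMD9L and USP18) and 4 higher (EPSTI1, HERC5, ISG20 and OASL), beside 7.88% and 9.42%. In C13, 0 of 28 were lower and 4 higher (MX2, OASL, SAMD9 and SAMD9L), beside 3.36% and 8.7%.

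The median log2 ratio of the members was −0.52 in HeyA8, −0.13 in HeyA8-MDR, −0.49 in SKOV3, −0.21 in SKOV3-TR, −0.31 in OV2008 and 0.17 in C13, where the median of all genes ranged from −0.03 to 0.03. In each family the parent line's median lay below that of its resistant partner, but the contrast above called no member for this difference. The HeyA8 median rests on the HeyA8 QC library that stood apart, and the part of that library in this order was not tested. The widest single ratios were those of OASL in OV2008 (3.02, from 14 to 158 counts), IFI44L in SKOV3 (−2.36, from 114 to 19), EPSTI1 in HeyA8-MDR (1.93, from 6 to 24), USP18 in HeyA8 (−1.47, from 33 to 13), MX2 in C13 (1.40, from 37 to 90) and MX1 in SKOV3-TR (−1.27, from 169 to 38). SAMD9L went from 42 to 8 counts in OV2008 and from 111 to 216 in C13.

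Of 25 genes with a ratio in all 6 lines, MX1, HERC6 and PARP9 were lower after QC in 6 of 6 lines and 0 were higher in 6 of 6, beside 5.49% and 4.79% of all genes. Without HeyA8, MX1, HERC6, PARP9 and OAS1 were lower in 5 of 5 lines and 0 of the 25 genes were higher in all 5, beside 7.19% and 6.87% of all genes. Both patterns include ratios close to 0, namely MX1 (−0.0026) and HERC6 (−0.051) in HeyA8-MDR and PARP9 (−0.047) in C13. The sign of such a ratio is uncertain, so these patterns are not read as an excess. IFIT5, OAS1, OAS2, STAT2, USP18 and DTX3L were lower in 5 of 6 lines. The share of all genes with that pattern was not counted, so their number is not read as an excess. For STAT2, DTX3L and OAS2 the exception was C13. BST2 was lower in each of the 4 lines that express it, by log2 ratios of −1.06 to −0.57, a pattern also not counted over all genes.

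**Figure D4:**
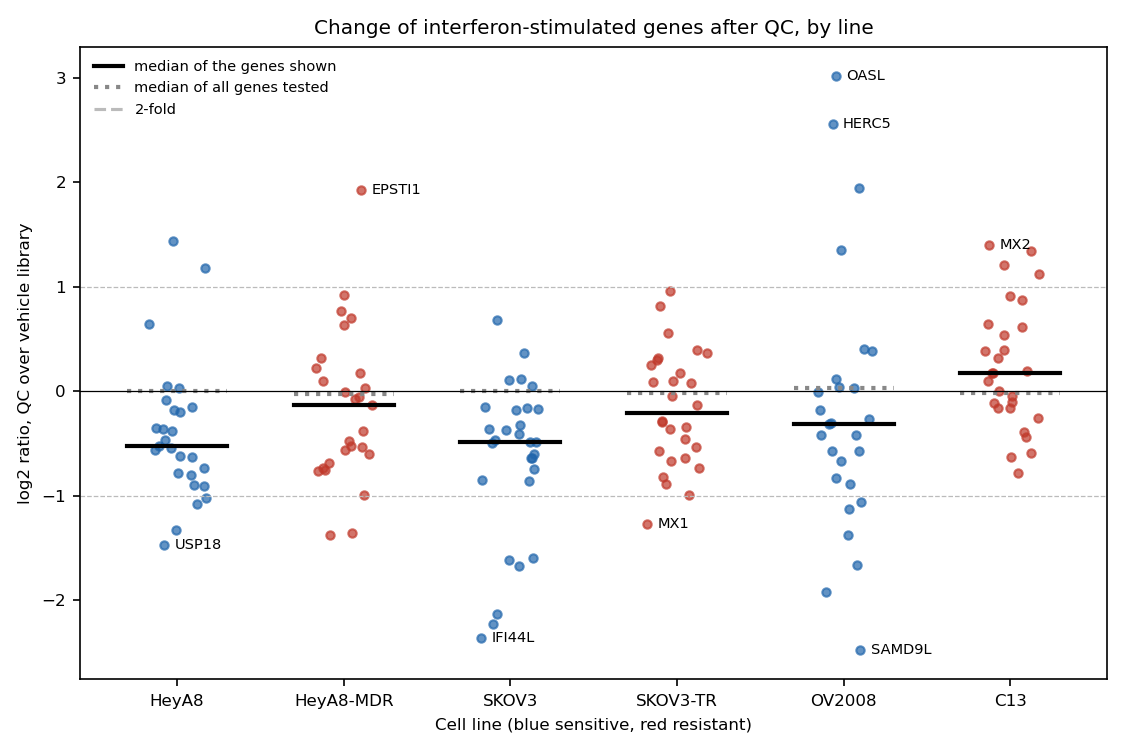
log2 ratio of the QC library over the vehicle library for each tested gene (points) in the 6 lines, blue for sensitive and red for resistant, with the median of the members (black bar) and of all genes tested (dotted grey bar). The black bars lie at −0.52, −0.49 and −0.31 in the sensitive lines and at −0.13, −0.21 and 0.17 in the resistant lines, and OASL in OV2008 is the highest point at 3.02.

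The pathway around these genes was read from lists set by pathway membership. Of 10 interferon genes, 9 had at most 10 counts in every library, and IFNE, an interferon of the reproductive tract, had 8 to 109 counts in the SKOV3 and OV2008 families and 0 in the HeyA8 family, where its neighbours CDKN2A and CDKN2B were also at 0 and MTAP had 0 to 2 counts. In SKOV3 these CDKN2 genes were at 0 too, while MTAP had 1283 and 948 counts. IFNE was lower in SKOV3-TR than in SKOV3 (−2.87 ± 0.74, adjusted p = 0.0143). Low counts of interferon RNA do not show that none was made.

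Of 11 genes for receptors, kinases and STATs, 0 were called in HeyA8-MDR or C13, whereas in SKOV3-TR 3 were lower and 1 higher, beside the 14.9% and 16.6% of all genes given above. IFNAR1, a chain of the type I receptor, stood at 74.6 and 76.7 CPM in HeyA8, 57.7 and 70.9 in HeyA8-MDR, 77.2 and 64.5 in SKOV3, 24.1 and 19.1 in SKOV3-TR, 51.9 and 51.4 in OV2008 and 40.5 and 48.4 in C13. It was lower in SKOV3-TR (−1.71 ± 0.22, adjusted p = 0.000127), with both libraries below every other one of the series. IFNGR1 (−0.90 ± 0.20, adjusted p = 0.00483) and STAT3 (−0.87 ± 0.23, adjusted p = 0.012) were lower there and TYK2 was higher (0.83 ± 0.22, adjusted p = 0.0141). Of 5 tested interferon regulatory factors outside the members, IRF3 was lower in HeyA8-MDR (−0.81 ± 0.20, adjusted p = 0.0462) and IRF1 lower in SKOV3-TR (−1.04 ± 0.26, adjusted p = 0.00914). Of all genes, 3.63% were called lower in HeyA8-MDR and 14.9% in SKOV3-TR.

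Of 12 tested nucleic acid sensors and relays, 8 were lower and 1 higher in SKOV3-TR, beside 14.9% and 16.6% of all genes, and 0 were called in HeyA8-MDR or C13. IFI16, a nuclear DNA sensor, stood at 177 and 97.9 CPM in HeyA8, 61.9 and 86.0 in HeyA8-MDR, 79.5 and 73.9 in SKOV3, 3.21 and 3.49 in SKOV3-TR, 104 and 58.2 in OV2008 and 102 and 83.9 in C13. It was lower in SKOV3-TR (−4.52 ± 0.35, adjusted p = 3.03e-06), followed by MAVS, the relay of the RNA sensors (−1.55 ± 0.25, adjusted p = 0.000649), the kinase IKBKE (−1.86 ± 0.35, adjusted p = 0.00182) and RIGI (−1.46 ± 0.33, adjusted p = 0.00571). In HeyA8-MDR 8 of the 12 were lower at an unadjusted p under 0.05 and 0 were higher, beside 14.3% and 8.63% of all genes. Among 6 negative regulators, SOCS3 was higher (0.96 ± 0.31, adjusted p = 0.0343) and PTPN2 lower (−0.75 ± 0.25, adjusted p = 0.036) in SKOV3-TR, beside 16.6% and 14.9% of all genes. PIAS1 was lower in C13 (−0.77 ± 0.20, adjusted p = 0.0345), beside 5.02% of all genes. In a list this short, single calls are not read as a result about the list.

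A list of 30 other interferon-stimulated genes, 28 of them tested, was read in the same comparisons. In HeyA8-MDR 4 were lower and 0 higher, beside 3.63% and 0.449% of all genes, namely DDX60L (−1.60 ± 0.30, adjusted p = 0.0154), GBP3 (−1.68 ± 0.33, adjusted p = 0.0175), GBP1 (−1.95 ± 0.41, adjusted p = 0.0258) and DDX60 (−1.73 ± 0.37, adjusted p = 0.0273). In SKOV3-TR 12 were lower and 0 higher, beside 14.9% and 16.6% of all genes, led by IDO1, a tryptophan-degrading enzyme (−7.58 ± 0.49, adjusted p = 8.87e-07), TNFSF10, the death ligand TRAIL (−5.95 ± 0.60, adjusted p = 2.12e-05), IFITM1 (−3.13 ± 0.39, adjusted p = 9.97e-05) and PARP14 (−1.36 ± 0.23, adjusted p = 0.000924). IDO1 stood at 0.0885 and 0 CPM in HeyA8, 0.0519 and 0 in HeyA8-MDR, 208 and 147 in SKOV3, 0.648 and 1.32 in SKOV3-TR, 0.112 and 0.176 in OV2008 and 0.466 and 1.09 in C13. In C13 4 were higher and 2 lower, beside 4.43% and 5.02% of all genes, with DDX60L (1.46 ± 0.31, adjusted p = 0.0131) and TRIM22 (2.50 ± 0.60, adjusted p = 0.0232) higher and IFITM3 (−0.96 ± 0.21, adjusted p = 0.0165) and IFITM1 (−1.21 ± 0.34, adjusted p = 0.0469) lower. After QC, 0 genes of any of these lists were called in any of the contrasts.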

How the data were processed

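Per the labels and the study's methods, polyA RNA libraries (TruSeq) of 6 cell lines, with and without QC, were sequenced, and the authors deposited 1 table of raw read counts per Ensembl gene, which was used as deposited. The submitters' processing notes name STAR 2.7.3a, HTSeq 0.6.1p1 and GRCh38.p13, whereas the methods name TopHat and hg19. The annotation and strand setting are not given in the sources used here, so reads of overlapping genes may be shared. Of 60669 gene IDs, 58620 were paired with a symbol, and the others held 0.132% of counts. Of the counts from 1 to 10, 68.4% were even.

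Counts were tested with edgeR 4.0.16 (quasi-likelihood, TMM, R 4.3.3), after filterByExpr on the 4 groups (minimum count 10, minimum total 15), with Benjamini-Hochberg adjustment over all genes tested, a threshold of 0.05, and SE taken as the log2 fold change over the root of F. Single-line ratios used a prior count of 2. A fold against 0 counts is a bound from a floor of 3 counts per library, and 95% exact intervals and floors cover counting error only. Both treat each count as independent, which the share of even counts given above puts in doubt, so they may be too narrow. The line was the block for QC contrasts and the family for vehicle contrasts. Vehicle and QC samples are paired because both are the same line, and their deviations from the group means correlated at 0.893 to 0.929 over 18720 genes. The scripts were tested on simulated data. DESeq2 1.42.0, its size factors, other filters, no block, left-out libraries and another prior count were tried as alternatives.

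The members and lists were chosen with earlier results of these data known. Named were all members by role, the called members of each comparison (at most 10 with log2 fold change and SE, or the 3 with the smallest p where none was called), and at most 4 called genes per pathway list. Levels in all libraries are given for those, for the 4 highest per kilobase and for the widest ratio in each line. A result on an item withheld for evaluation is not reported here.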

Additional observations from a re-analysis of the deposited data

Results flagged for a closer look

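HERC5 in OV2008 stood apart from the other lines, with a QC over vehicle log2 ratio of 2.56, where the other 5 lines lay between −0.37 and 0.64. It rests on 3 and 32 counts, an 8.40-fold higher level (95% counting interval 2.63 to 42.9). Dixon's criterion flags about 1 group in 20 by chance, and 25 members were examined.

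The remaining results were marked because a test of the difference between families or resistance classes bore on them. Between C13 and HeyA8-MDR, the resistant-over-parent effects differed by 8.08 for IFI44, 3.41 for IFIT3 and 4.33 for IFI6 on the log2 scale. Between C13 and SKOV3-TR they differed by 4.91 for BST2, 9.31 for IFI27 and 4.38 for MX1. Between SKOV3-TR and HeyA8-MDR they differed by −4.12 for IRF7, 1.86 for OAS3 and −2.72 for MX1. The QC response of resistant lines exceeded that of sensitive lines by 0.97 for IFIT2 and 0.99 for IFI6 at unadjusted p = 0.0189 and 0.0364 (edgeR), and both had an adjusted p of 1.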

How the results depend on the processing

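Over the alternatives run, 484 of 535 values of named members kept their direction and side of the threshold, 45 lost the call, 6 gained it and 0 reversed. The cause of these changes was not tested. For DESeq2 and the other filters the share of all genes called is not given here, so those counts are not read as an excess. QC over all lines called 0 members, 4 without an expression filter, 2 with DESeq2 and 12 at an unadjusted p under 0.05. Unadjusted, the count was 11 in sensitive lines, 1 in resistant lines and 5 for their difference. With any 1 line left out these QC counts stayed at 0 for adjusted p, and unadjusted without HeyA8, a setting added after the data were seen, they were 8 over all lines, 11 in sensitive lines and 5 for the difference. Resistant over sensitive lines gave 0, but 1 without a filter, 1 with DESeq2 and 4 unadjusted. HeyA8-MDR over HeyA8 gave 9, with 5 when at least 10 counts were required in every library (17 members tested), 16 unadjusted and 1 to 11 with a library left out, 4 without HeyA8 vehicle and 1 without HeyA8-MDR vehicle. SKOV3-TR over SKOV3 gave 15 and 11 to 16 with a library left out. C13 over OV2008 gave 11, with 5 at 10 counts and 5 to 11 with a library left out, 5 without C13 QC. C13 minus HeyA8-MDR gave 14, with 8 at 10 counts, 22 unadjusted and 8 to 13 with a library left out (8 without C13 QC). C13 minus SKOV3-TR gave 18, with 10 at 10 counts and 11 to 19 with a library left out (11 without SKOV3 vehicle, 11 without C13 QC). SKOV3-TR minus HeyA8-MDR gave 11, with 7 at 10 counts and 7 to 12 with a library left out (7 without HeyA8 vehicle). Without the replicate block, the C13 count was 7, that of HeyA8-MDR 6 and that of SKOV3-TR 14, and dropping the pairing left the QC and resistance counts at 0. In single lines, a prior count of 0.5 gave 2 members higher in HeyA8-MDR and 1 higher and 2 lower in SKOV3-TR, and library size scaling gave 3 lower in SKOV3-TR. RSAD2, XAF1 and IRF9 had too few counts to be tested at this depth.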

Other observations

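Among interferon-related genes outside the members, chosen here after their values were seen, the chemokines CXCL10 and CXCL11 had counts in C13 and next to none elsewhere. CXCL10 had 32 counts in C13 vehicle and 20 in C13 QC, and at most 1 in any other library. CXCL11 had 16 and 54 counts in C13 and 0 in all others. The type III interferon genes IFNL1 (2 and 6 counts) and IFNL3 (5 and 2 counts) had a few counts in C13. IFNL3 had 0 counts in the other 10 libraries and IFNL1 at most 2. Other interferon genes were also low, with IFNB1 at 4 and 2 counts in C13 and IFNA1 at 10 in OV2008 QC. Counts this low are not read as particular to C13. IFNLR1, a chain of the type III receptor, had 221 and 350 counts in OV2008 and 454 and 439 in C13, against 0 to 13 in the HeyA8 and SKOV3 families. IFNLR1 was tested within each family and in the QC contrasts and was called in none (C13 over OV2008 0.21, adjusted p = 0.84, edgeR), whereas the difference between families was not tested. CXCL10, CXCL11, IFNL1 and IFNL3 had too few counts to be tested.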
